A study of Caenorhabditis elegans with 3 samples.

Results

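The genes described here encode chromatin repressors of *Caenorhabditis elegans* that act in germline and vulval development. They are the maternal-effect sterile genes *mes-2*, *mes-3*, *mes-4* and *mes-6*, and the synthetic multivulva (synMuv) genes *lin-35*, *efl-1*, *dpl-1*, *lin-53* and *hpl-2*. The paralog of *hpl-2*, *hpl-1*, is included with them. All these genes were chosen by name, as the probes whose only listed gene was one of these. All 10 genes were found, each with 1 probe, among 20000 probes on the array, and all 10 had a value on every array. A further probe listed for *mes-6* together with *cks-1* and *C09G4.4* was left out because its signal cannot be assigned to 1 gene. RNA of mid-L3 hermaphrodites was compared on 3 two-colour arrays with a common reference, labelled as mixed RNA of the wild type. Which stages or sexes were mixed is not stated. L3 is the larval stage in which the vulval precursor cells are induced and the germline expands before it makes sperm and oocytes. Each array carried RNA of 1 of 3 mid-L3 preps in its second channel and the reference in its first. The channels were not swapped on any array, so a gene's difference between channels and between samples cannot be told apart. The labels name the larval sample TP01 and give no genotype, temperature or further treatment for it. The labels do not say whether the preps were separate cultures, so p-values measure only the spread between these 3 preps.

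MES-2 and MES-6 are the worm counterparts of Enhancer of zeste and Extra sex combs, and with MES-3 they form a Polycomb repressive complex 2 (PRC2) that methylates histone H3 on lysine 27 and keeps genes silent. MES-4 methylates H3 on lysine 36 and is known to mark germline-expressed genes and to carry that mark from the parental germline into the embryo's germ cells. LIN-35, the worm retinoblastoma protein, sits with the E2F factor EFL-1, its partner DPL-1 and the MuvB core proteins, the histone-binding protein LIN-53 among them, in the DRM complex, which represses cell cycle genes and, in somatic cells, germline genes. HPL-1 and HPL-2 are heterochromatin protein 1 homologs that bind methylated H3 lysine 9. Loss of synMuv genes of classes A and B together causes extra vulvae, because the epidermal growth factor gene *lin-3* is then expressed ectopically.

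The values are log2 ratios of the 2 channels, centred on each array's median, so 0 is the ratio of the median probe. No source states which channel is the numerator. The description of each array names mid-L3 first and sets it against the reference, and mid-L3 is in the second channel. Ratios of 2-colour arrays are commonly written with the second channel over the first, so a positive value is likely higher in mid-L3. Signs are given as deposited. The 3 arrays ran the same way, with correlations over all probes between 0.739 and 0.81. As a check of the samples, 10 of 12 oocyte and eggshell genes were negative past the threshold (median log2 ratio -2.95) and 7 of 8 muscle genes were positive (median 1.94). Sperm genes were negative in 8 of 10 cases, with a median of -1.64. Of 10 markers of proliferating and early meiotic germ cells 2 were positive and 4 negative, with a median of -0.39 and array medians from -0.48 to -0.20. Of 5 embryo genes 3 were negative and 0 positive (limma), with a median of -0.59. Intestinal and hypodermal markers were positive in 7 of 8 and 4 of 8 cases, and 0 of 8 neuronal markers passed in limma, with 2 at an unadjusted p under 0.05. The repressors are known to be expressed in germ cells and embryos as well as in the soma. The part of these cell types in the ratios below was not tested. In whole-animal RNA, fewer cells of a type and less RNA per cell cannot be told apart.

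None of the 10 repressor genes differed from the reference past the threshold. Their mean log2 ratios ran from -0.50 for *efl-1* to 0.08 for *hpl-1*, with a median of -0.17, a 1.12-fold difference, beside a median of 0.0098 over all 19075 features. In limma, with Benjamini-Hochberg adjustment over all features at 0.05, 0 of the 10 passed, beside 27.1% of all features (13.5% positive and 13.6% negative). At an unadjusted p under 0.05, 2 of 10 passed, *mes-3* and *efl-1*, both negative, beside 36.7% of all features. In this main setting the 95% interval of every one of the 10 genes lay between -1 and 1. A 2-fold difference in either direction was thus outside each interval, as it was for 70.4% of all features. Intervals under the other settings, where the mean of *mes-3* reached -0.73, are not given here. The smallest absolute mean that passed on these arrays was 0.53, and the means of *efl-1* and *mes-3* lay just under it. The absolute means of *efl-1*, *mes-3* and *lin-35* ranked above those of most features, at the percentiles 66.9, 65.6 and 58.1, and those of the other 7 genes ran from percentile 4.16 to 42.4.

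**Figure D1:**
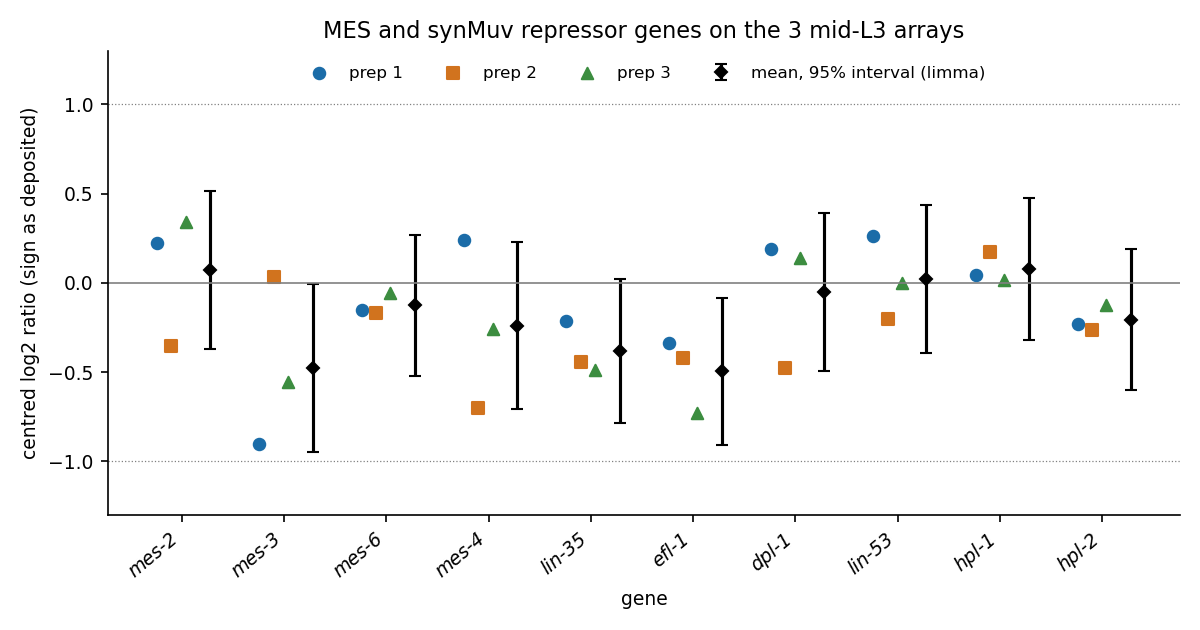
Centred log2 ratio of each of the 10 genes on the arrays of preps 1, 2 and 3 (coloured symbols), with the mean and its 95% limma interval (black). Dotted lines mark a 2-fold difference, and no interval reaches either of them.

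Of the PRC2 genes, *mes-6* was the steadiest. Its log2 ratios were -0.15, -0.17 and -0.06 in preps 1, 2 and 3, a mean of -0.13 ± 0.06 (SD, n = 3, as for all errors here). All 3 arrays lay slightly below 0, and the difference did not pass (limma adjusted p = 0.678). *mes-2*, the methyltransferase gene, gave 0.22, -0.36 and 0.34, a mean of 0.07 ± 0.37 (limma adjusted p = 0.852). Preps 1 and 3 were positive and prep 2 negative, so its sign depended on the array. *mes-3*, whose protein joins MES-2 and MES-6 in this complex, gave -0.91, 0.03 and -0.56, a mean of -0.48 ± 0.47 with an interval from -0.95 to -0.0080. Preps 1 and 3 were clearly negative and prep 2 lay at the median (limma adjusted p = 0.13). Sectors here are blocks of probes inferred from their order, not from a known array layout. The median probe of the sector assigned to *mes-3* stood at 0.60 in prep 2, against -0.07 and 0.21 in preps 1 and 3. Relative to its own sector the mean of *mes-3* was -0.73 and passed (limma adjusted p = 0.0121). Without prep 2 it also passed, at -0.73 (limma adjusted p = 0.0432), and with array quality weights at -0.59 (limma adjusted p = 0.0224). These 3 genes of one complex therefore had means from -0.48 to 0.07. The difference between *mes-3* and *mes-2* was -1.13, 0.39 and -0.90 in the 3 preps, with no common sign. With 3 arrays an exact sign-flip test of such a difference cannot give a p below 0.25.

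*mes-4*, the H3 lysine 36 methyltransferase gene, gave 0.24, -0.70 and -0.26 in preps 1, 2 and 3, a mean of -0.24 ± 0.47. Prep 2 was the lowest of all 10 genes on that array, while prep 1 was positive, and the gene did not pass (limma adjusted p = 0.472). The interval ran from -0.71 to 0.23, that is from 0.612-fold to 1.17-fold. The replicate spread of *mes-3* and *mes-4* was larger than that of 79.8% and 79.5% of all features.

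The retinoblastoma and E2F genes leaned to negative ratios. *lin-35* gave -0.21, -0.44 and -0.49, a mean of -0.38 ± 0.15, negative on all 3 arrays (limma adjusted p = 0.159). *efl-1*, the E2F gene, gave -0.34, -0.42 and -0.73, a mean of -0.50 ± 0.21, also negative on all 3 arrays. Its interval, from -0.91 to -0.09, left out 0, but over all features it did not pass (limma adjusted p = 0.0728). It passed with array quality weights, at -0.57 (limma adjusted p = 0.0175). *dpl-1*, whose protein pairs with EFL-1 to bind DNA, did not share that sign: it gave 0.19, -0.48 and 0.14, a mean of -0.05 ± 0.37 (limma adjusted p = 0.898). The difference between *efl-1* and *dpl-1* was -0.53, 0.06 and -0.87 in the 3 preps, so prep 2 did not show it.

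*lin-53* encodes a histone-binding WD40 protein of the RbAp46 and RbAp48 type that is shared by DRM, the NuRD deacetylase complex and other chromatin complexes. It gave 0.26, -0.20 and 0.00, a mean of 0.02 ± 0.23, the closest to 0 of the 10 (limma adjusted p = 0.958). The related gene *rba-1* lies next to it on chromosome I and had no usable one-gene probe here. Whether the *lin-53* spot also takes up *rba-1* RNA was not tested.

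The heterochromatin protein 1 genes had the smallest replicate spread beside *mes-6*. *hpl-1* gave 0.04, 0.17 and 0.01, a mean of 0.08 ± 0.09, positive on all arrays (limma adjusted p = 0.818). *hpl-2*, the paralog with the stronger known roles in vulval and germline development, gave -0.23, -0.27 and -0.12, a mean of -0.21 ± 0.07, negative on all arrays (limma adjusted p = 0.469). The values of these genes did not overlap, and *hpl-2* lay below *hpl-1* by 0.27, 0.44 and 0.14 in preps 1, 2 and 3. That is the same order on 3 of 3 arrays, for which the exact sign-flip test gives its smallest possible p of 0.25. RefSeq lists 3 transcripts for *hpl-2* and 1 for *hpl-1*. One spot cannot separate transcripts of a gene.

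Ordered by mean, the 10 genes ran *efl-1*, *mes-3*, *lin-35*, *mes-4*, *hpl-2*, *mes-6*, *dpl-1*, *lin-53*, *mes-2* and *hpl-1*. Neighbours in this order were at most 0.14 apart, and 8 of the 9 neighbouring pairs were closer than the larger SD of the pair. The exception was *hpl-2* and *mes-6*, which lay 0.08 apart with SDs of 0.07 and 0.06. Of the 10, 7 had a negative mean, beside 49.1% of all features, and 4 were negative on all 3 arrays, beside 27.4% of all features negative on all 3. With *hpl-1*, 5 of 10 kept their sign on every array, beside 54.6% of all features. On the array of prep 2, 8 of the 10 genes were negative, with a median of -0.31. In prep 1 it was 5 of 10 (median -0.06) and in prep 3 it was 6 of 10 (median -0.09). The medians of all features in preps 1, 2 and 3 were -0.0014, 0.0075 and -0.0028. The SD over the 10 genes was 0.36, 0.26 and 0.34 on these arrays. Whether the arrays differ in these genes was not tested. Leaving out prep 2, the median of the 10 genes was -0.06, and without preps 1 and 3 in turn it was -0.18 and -0.20. The median absolute mean of the 10 genes was 0.17, against 0.30 over all features, and their median SD of 0.22 compared with 0.29.

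The values were also set against those of nearby probes. Only *mes-2* and *lin-35* shared a sector, that is a block of probes inferred from their order, since the real layout of the array is not given here. The sector medians at the 10 genes were between -0.25 and 0.17 in prep 1, between -0.30 and 0.60 in prep 2 and between -0.11 and 0.21 in prep 3. Set against their own sectors, *mes-6* and *hpl-2* were at -0.32 and -0.35, farther from 0 than before, and *lin-35* and *efl-1* at -0.27 and -0.40, closer to it. None of these 4 passed (limma adjusted p from 0.103 to 0.269). *mes-3* was the gene with the highest sector median in prep 2 and the only one of the 10 to pass in this way. Whether place on the array causes these shifts was not tested.

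**Figure D2:**
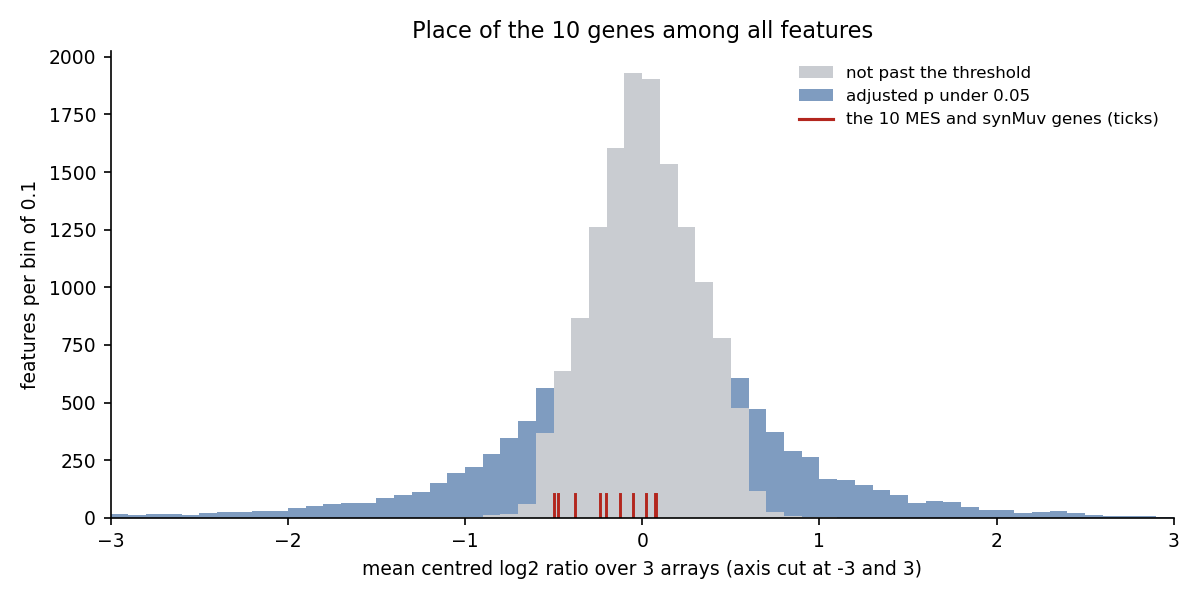
Histogram of the mean centred log2 ratio of all 19075 features, stacked by whether limma's adjusted p was under 0.05, with red ticks at the 10 repressor genes. The ticks lie between -0.50 and 0.08, inside the central peak of features that did not pass.

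The 10 genes lie on 6 chromosomes, 3 of them on I, 2 on II, 2 on V and 1 each on III, IV and X. *hpl-1* is the one on X. Of the 20 protein-coding genes next to them on either side in the RefSeq annotation, 16 were measured, of which 2 were positive and 4 negative past the threshold (limma), beside 13.5% and 13.6% of all features. The farthest was *C32F10.4*, next to *lin-35*, at -2.68 ± 0.46 (limma adjusted p = 5.29e-06), 1 of the genes in this paragraph named after their values were seen. The gene on the other side of *lin-35*, *vps-51*, was at -0.58 ± 0.21 (limma adjusted p = 0.0384). *lin-35*, at -0.38 and not past the threshold, thus stood between 2 neighbours that passed with negative ratios. The differences between *lin-35* and its neighbours were not tested. Also negative past the threshold (limma) were *dom-3*, next to *mes-3*, at -0.61 and *K08H2.7*, next to *hpl-1*, at -0.67. Positive past it were *col-162*, next to *mes-4*, at 1.27 and *nra-2*, next to *lin-53*, at 0.78.

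The partners of these repressors were examined through lists of related genes. Of 95 measured genes on 13 lists, 13 were positive and 7 negative past the threshold (limma), together 21.1% of them, beside 27.1% of all features. Some genes, such as *let-418*, stand on more than 1 list. The counts per list below use limma's adjustment over all features.

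The other DRM genes had the lowest median of the 13 lists. Of the 4 MuvB core genes other than *lin-53*, 3 were negative and 0 positive, with a median of -0.77. Of *lin-35*, *efl-1*, *dpl-1* and *lin-53*, which belong to the same complex, 0 passed (limma; 1 at an unadjusted p under 0.05), with a median of -0.22. Whether these groups differ was not tested. *lin-54*, whose protein binds DNA, gave -0.70, -1.14 and -1.01, a mean of -0.95 ± 0.23 and a 1.93-fold difference (limma adjusted p = 0.00294). *lin-37* gave -0.97, -1.37 and -0.55, a mean of -0.96 ± 0.41 (limma adjusted p = 0.00462). Both passed under all 15 other settings tried. *lin-52* gave -0.60 ± 0.10 and passed with 3 arrays (limma adjusted p = 0.0298), but not when any one prep was left out, where the adjusted p ran from 0.0563 to 0.194. *lin-9* was at -0.03 ± 0.30. These last genes are named after their values were seen. Set against *lin-35* on the same arrays, *lin-54* was lower by 0.49, 0.70 and 0.52 and *lin-37* lower by 0.75, 0.93 and 0.06. Each has the same order on 3 of 3 arrays, for which the exact sign-flip p of 0.25 is the smallest possible. The difference between *lin-37* and *efl-1* was -0.63, -0.95 and 0.18 in the 3 preps, with no common sign. *lin-54* lay below *efl-1*, and both *lin-54* and *lin-37* lay below *dpl-1*, on all 3 arrays. Subunit genes of DRM thus ran from about the median ratio (*lin-9*, *lin-53*, *dpl-1*) to about 2-fold below it.

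**Figure D3:**
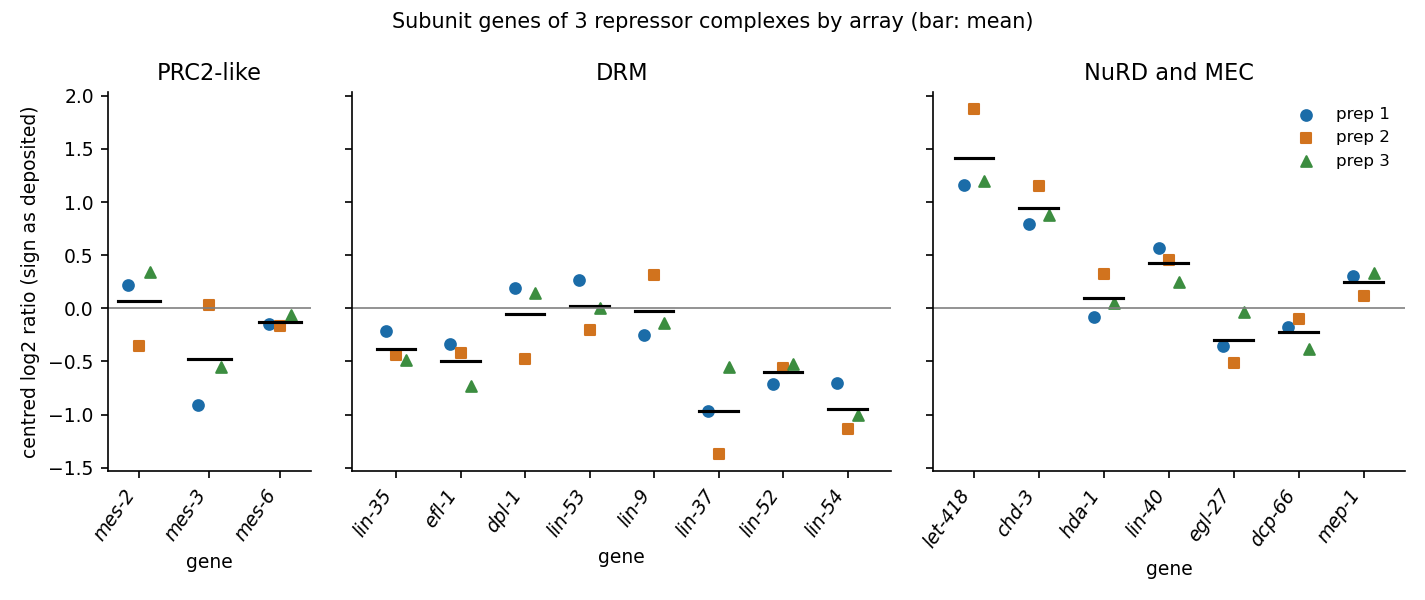
Centred log2 ratio on each array for genes of the PRC2-like, DRM and NuRD or MEC complexes, with a bar at the mean. By their means, *lin-37* and *lin-54* lie near -1, *let-418* and *chd-3* near or above 1, and the MES and retinoblastoma genes between them. On single arrays the order can differ: in prep 1 *mes-3* (-0.91) lies below *lin-54* (-0.70), and in prep 3 *efl-1* (-0.73) lies below *lin-37* (-0.55).

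Of 11 other class B synMuv genes, 2 were positive and 0 negative, with a median of 0.08 (0.18 without prep 1 and 0.05 without prep 2). *let-418*, one of the Mi-2 chromatin remodellers, gave 1.16, 1.87 and 1.199, a mean of 1.41 ± 0.40 and a 2.66-fold difference (limma adjusted p = 0.000372). *lin-13*, a zinc finger gene whose protein is known to bind HPL-2, gave 0.76, 1.05 and 0.58, a mean of 0.80 ± 0.24 (limma adjusted p = 0.00852). *lin-61*, the gene of a malignant brain tumor repeat protein that is found with HPL-2 and LIN-13, was at -0.50 ± 0.12 and did not pass (limma adjusted p = 0.0669). *hpl-2*, at -0.21, also did not pass, and the differences between these 3 genes were not tested.

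Among 7 genes of the NuRD and MEC complexes, 2 were positive and 0 negative, with a median of 0.25. Besides *let-418* it was its paralog *chd-3*, at 0.80, 1.16 and 0.87, a mean of 0.94 ± 0.19 (limma adjusted p = 0.0028). The deacetylase gene *hda-1*, at 0.10 ± 0.21, and the zinc finger gene *mep-1*, at 0.25 ± 0.11, both named after their values were seen, did not pass. *let-418* exceeded *lin-53* by 0.896, 2.08 and 1.199 in the 3 preps. In the class C, TIP60-like list 1 of 3 genes was positive: *trr-1*, the TRRAP homolog, at 0.90, 1.31 and 0.77, a mean of 0.99 ± 0.28 (limma adjusted p = 0.00252).

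None of the 4 class A synMuv genes passed (limma; 0 at an unadjusted p under 0.05), and their median was -0.27 (-0.14 without prep 1 and -0.38 without prep 3). The farthest from 0 was *lin-38*, which gave -0.996, -0.44 and 0.19, a mean of -0.41 ± 0.59. Of 6 chromatin genes known as suppressors of the synMuv phenotype 0 passed (limma; 2 at an unadjusted p under 0.05), with a median of -0.05 that became 0.05 without prep 1 and -0.01 without prep 3. *nurf-1*, of the NURF remodelling complex, came closest at 0.53 ± 0.05 (limma adjusted p = 0.0501). Of the 15 other settings 5 put it past the threshold. Of 8 genes of H3 lysine 9 methylation and nuclear anchoring 0 passed (limma; 1 at an unadjusted p under 0.05), and *lin-61* was the farthest from 0. The median of that list was -0.02, and without preps 1, 2 and 3 in turn it was -0.06, -0.10 and 0.02.

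**Figure D4:**
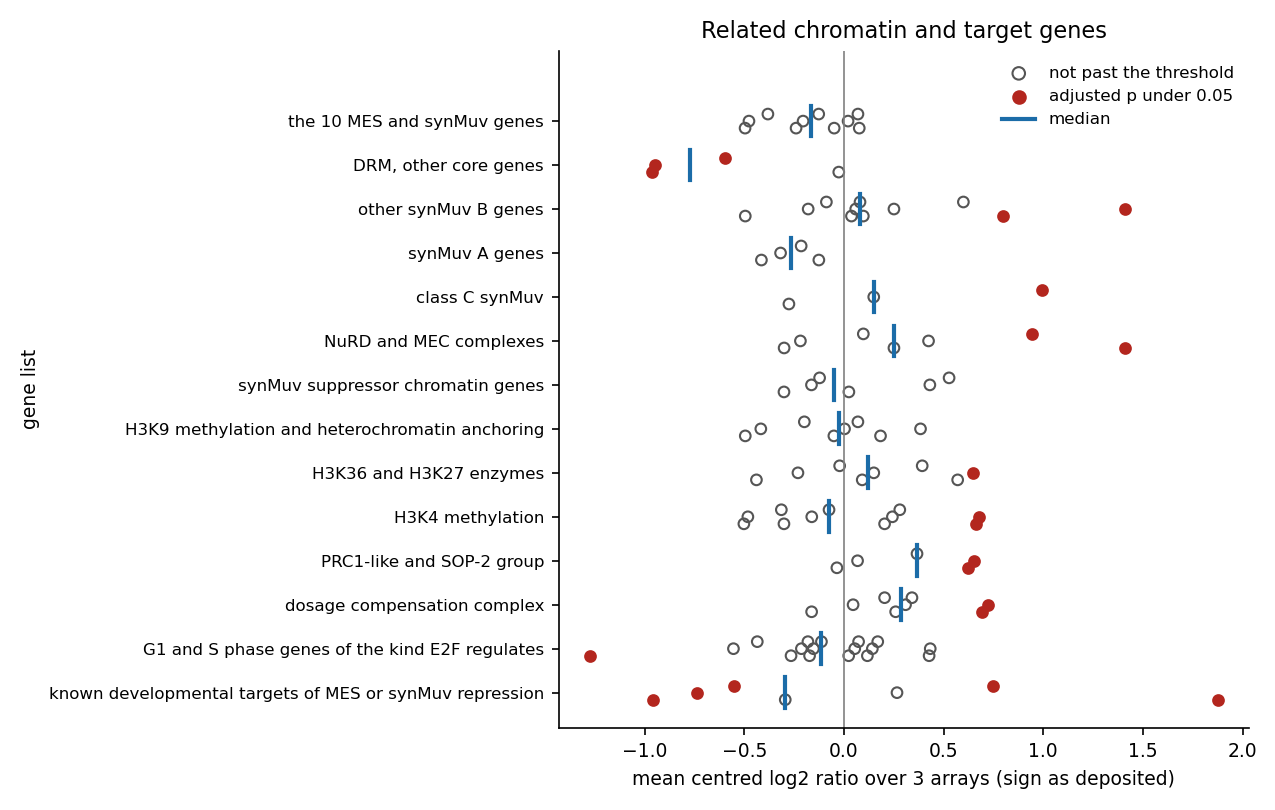
Mean centred log2 ratio of every measured gene of the 13 lists and of the 10 repressor genes. Filled red points had a limma adjusted p under 0.05, and blue bars mark list medians, which run from -0.77 for the other DRM genes to 0.37 for the PRC1-like group.

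Further lists hold enzymes that write or remove marks on the same or neighbouring histone residues as the MES proteins, and other repressor complexes. Of 8 genes for H3 lysine 36 and lysine 27 enzymes 1 was positive, with a median of 0.12. It was *jmjd-3.1*, an H3 lysine 27 demethylase gene, which opposes the PRC2 mark, at 1.07, 0.62 and 0.26, a mean of 0.65 ± 0.40 (limma adjusted p = 0.0359). Its call was lost without prep 1 and without prep 2, at adjusted p = 0.323 and 0.118. Of 11 genes of H3 lysine 4 methylation 2 were positive, *dpy-30* at 0.68 ± 0.27 and the methyltransferase gene *set-2* at 0.66 ± 0.0018, with a list median of -0.08 that was -0.18 without prep 1 and turned to 0.11 without prep 2. In the PRC1-like and SOP-2 group 2 of 5 genes were positive, the RING finger gene *spat-3* at 0.65 ± 0.17 and *sor-1* at 0.62 ± 0.19, with a median of 0.37 (0.24 without prep 2). The dosage compensation complex, which lowers transcription of X in hermaphrodite somatic cells, had 2 of 8 genes positive, the condensin gene *dpy-27* at 0.72 ± 0.29 and *sdc-3* at 0.69 ± 0.20, with a median of 0.28 (0.19 without prep 3). All 6 of these genes lost their calls without prep 1 (limma adjusted p from 0.069 to 0.178). Without prep 3 only *dpy-30* of the 6 passed, and without prep 2 *dpy-30* and *sor-1* did not.

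The last lists hold genes of the kinds that these repressors are known to act on. Whether each gene is a target was not tested. Of 17 genes of the G1 and S phases, the kind regulated by E2F, 0 were positive and 1 negative, beside 13.5% and 13.6% of all features. Their median was -0.11 (-0.05 without prep 1 and -0.07 without prep 3). The negative gene was *cye-1*, for cyclin E, at -1.45, -1.24 and -1.14, a mean of -1.27 ± 0.16 and the gene of this list farthest from 0 (limma adjusted p = 0.000358). It passed under all 15 other settings. The other 16 genes lay between -0.55 and 0.43. The ribonucleotide reductase gene *rnr-2* lacked a value in prep 3, so it is not among the 17, and on preps 1 and 2 alone it was at -1.10 (limma adjusted p = 0.00315), named after its value was seen. Of 7 developmental targets of MES or synMuv repression 2 were positive and 3 negative. *lin-3*, the epidermal growth factor gene whose ectopic expression synMuv genes prevent, gave -1.05, -1.31 and -0.51, a mean of -0.96 ± 0.41 (limma adjusted p = 0.00467). The germ granule helicase gene *glh-1* was at 1.87 ± 0.48. Named after their values were seen, the germ granule genes *pgl-1* and *pgl-3* were at 0.75 ± 0.32 and -0.74 ± 0.14, and the Hox gene *egl-5*, a target of Polycomb-type repression, at -0.55 ± 0.14. *egl-5* lost its call when any one prep was left out, *pgl-1* without prep 2 and without prep 3, and *pgl-3* without prep 3, with a highest adjusted p of 0.179, 0.142 and 0.0609 among these. A ratio between whole animals of mixed and mid-L3 stages does not say in which cells a gene was expressed.

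**Figure D5:**
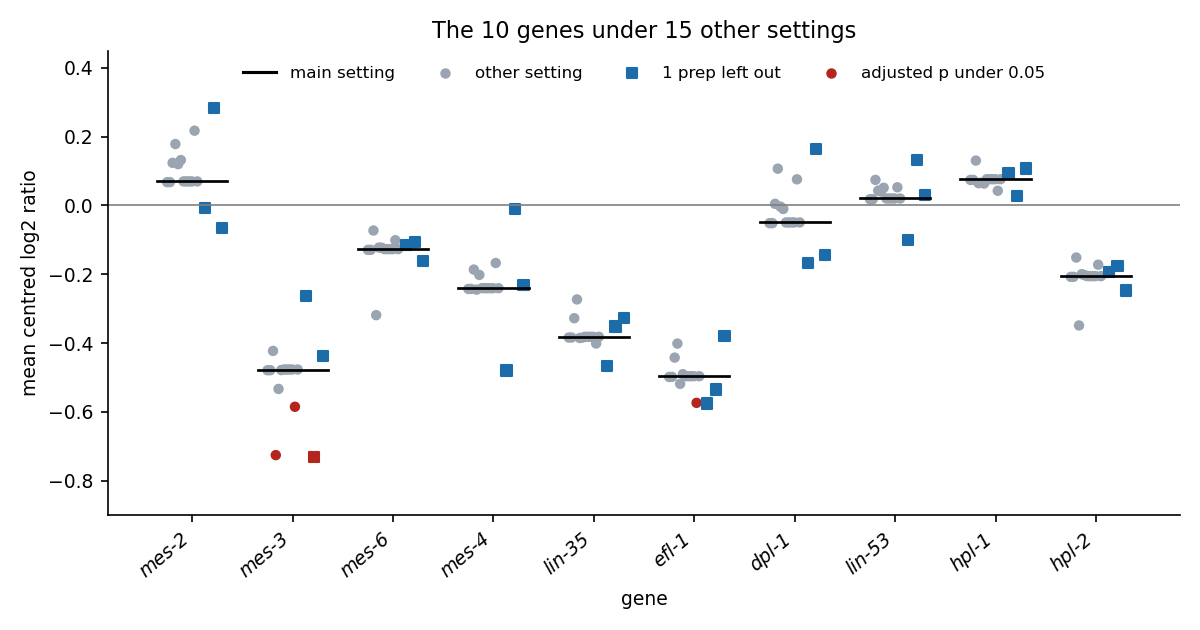
Mean log2 ratio of the 10 genes under the main setting (black bar), under 12 other settings with all preps (grey) and with each prep left out (blue squares), red where limma's adjusted p was under 0.05. *mes-3* is red under 3 of these 15 settings and *efl-1* under 1.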

How the data were processed

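The deposited values are log2 ratios that the authors computed from the 2 channels, 1 per probe and array, centred near 0. The log base was read from the values. With base 2, ratios fell on multiples of 0.001 (within 0.001 of one such step) in 97.86%, 97.03% and 98.33% of cases for preps 1, 2 and 3, and with base e in at most 0.402%. How the authors scanned, corrected and normalized the arrays, and with which dyes, is not given in the sources at hand. No signal intensity was used, so dim and bright spots could not be told apart, and the number of arrays limits the precision.

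The platform annotation, which is old, lists 1 gene for 15655 of the 20000 probes, several for 198 and none for 4147. Symbols were updated by Entrez identifier through the RefSeq table of WBcel235 for 15569 probes, and 86 kept the old symbol. Each array was centred on its median over all probes. Probes with a value on all 3 arrays (19512) were kept, probes of a gene averaged, and 19075 features, 14936 of them named, compared with 0 in limma 3.58.1 (R 4.3.3, intercept only, two-sided, Benjamini-Hochberg over all features). The test leaves out the reference's own spread. The moderated variance has 9.23 prior and 2 residual degrees of freedom, so intervals and p-values borrow from all features, while SDs are each gene's own.

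The fit was tested on simulated data with known changes. In that test some unchanged features also passed the threshold, and some of the smaller changes were missed. The genes and lists were chosen with earlier results of these data known. Named genes are the 10 repressor genes and, from each list, the 2 farthest from 0 past the threshold with 1 sign on all arrays, or the farthest 1. Sectors are 32 blocks of 25 by 25 probes in probe order, inferred from how each array deviates from the average array. Such deviations correlated at 0.303, 0.3 and 0.198 at a lag of 25 probes and 0.194, 0.11 and 0.137 at 12. As alternatives, arrays were centred or scaled in other ways, and further settings were values on 2 or more arrays, every probe alone, annotation symbols as listed, robust moderation, array weights, a minimum of 1.2-fold and each prep left out. Array titles differ for every array, so array and prep cannot be told apart. Figures were drawn with matplotlib 3.10.9.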

Additional observations from a re-analysis of the deposited data

How the results depend on the processing

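The count of 0 positive repressor genes held under all 15 alternatives (limma). The count of negative ones was 1 with centring within sectors, 2 with array weights and 0 to 1 when each prep was left out. Their median stayed negative, from -0.26 to -0.06 over all alternatives. Of 150 values of single repressor genes under an alternative, 139 kept both sign and side of the threshold, 4 passed it (*mes-3* in 3 and *efl-1* in 1) and 7 changed sign. *dpl-1* was at 0.0047 centred on the density peak, 0.11 within sectors, 0.076 with array weights, and between -0.17 and 0.16 with each prep left out. In the same way *mes-2* ran from -0.066 to 0.28 and *lin-53* from -0.10 to 0.13. Among related genes *lin-9* was at 0.028 with the density peak, 0.11 within sectors and from -0.20 to 0.085 with each prep left out. Features past the threshold numbered 1603 positive and 1624 negative with a minimum of 1.2-fold, and 1622 were negative with the density peak. Related genes numbered 5 positive and 4 negative with the 1.2-fold minimum and 7 to 9 positive when each prep was left out. Of the 20 related genes named that passed, 9 passed under every alternative and also when each prep was left out, namely *lin-37*, *lin-54*, *let-418*, *lin-13*, *trr-1*, *chd-3*, *cye-1*, *glh-1* and *lin-3*. Leaving out a prep leaves 2 arrays and fewer degrees of freedom. The cause of the other changes was not tested. No paired analysis was possible because there is 1 group of samples.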
